A study of Mus musculus with 2 samples.

Results

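The genes described here are 8 components of the cell-death machinery that were measured in mouse embryonic stem (ES) cells: the death receptors Fas and Tnfrsf10b, the adaptor Fadd, the initiator caspase Casp8, the apoptosome genes Apaf1 and Casp9, the executioner caspase Casp6 and the initiator caspase Casp2. They were taken by symbol from the deposited table, where all 8 were found among 21937 genes. The cells were wild type, of mixed 129Sv-C57Bl/6 background and free of feeder cells. In 1 group they received ICRF-193 at 500 nM for 16 h, beginning 32 h after seeding, and in the other DMSO, the solvent, for the same time. ICRF-193 blocks the catalytic cycle of topoisomerase II, and the series was designed to ask how that activity bears on transcription. Each group held 3 libraries of messenger RNA, and the labels do not say whether these came from separate cultures. The p-values below therefore speak of the spread among these libraries alone, which may be technical.

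Apoptosis can start at the cell surface or inside the cell. In the first route a ligand binds a death receptor such as Fas or Tnfrsf10b (the mouse TRAIL receptor), the receptor recruits FADD, and FADD brings caspase-8 molecules together so that they activate each other. In the second route cytochrome c leaves mitochondria and binds APAF1, which assembles into the apoptosome and activates caspase-9. Both routes lead to executioner caspases, caspase-6 among them, while caspase-2 is activated on a separate platform built around PIDD1. Fas, Tnfrsf10b and Apaf1 are textbook targets of p53, and ES cells are known as cells that die readily after DNA damage.

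The deposited table gives 1 mean per group in normalised reads, that is, reads divided by a size factor for each library. The reads of each library were worked back from the printed digits of these means, with a single solution for each of the 8 genes. Libraries are named A, B and C within a group by falling size factor, which is a name and no replicate number. Estimated depth was 29549165 to 47441724 reads per library. DMSO-A and ICRF-193-A stood apart from the other 4 libraries: 10 fibroblast and feeder-cell markers summed to 19818 and 22774 normalised reads in them, against 3230 to 5351 in B and C. Col1a1, a fibrillar collagen gene, gave 12908 of the normalised reads in DMSO-A and 15180 of those in ICRF-193-A. In both groups 6 of the 10 were higher in A than in B and C, and 2, Thy1 and S100a4, were lower. Of that list 1 gene, Lum, was under 10 normalised reads in both groups, and none was at 0. The same counts were taken on other lists, and the share of all genes with such an order was not worked out. Of 7 markers of endothelium and visceral endoderm, 5 were higher in A than in B and C in both groups, and 1 was lower. For 10 leukocyte markers these counts were 3 and 2. All 10 ES-cell markers were present and had a lower mean in ICRF-193, Pou5f1 with 42678 normalised reads in DMSO and 32352 in ICRF-193. Of this list 1 gene, Zfp42, fell in the authors' DESeq test (fold 0.504, adjusted p = 0.00186), against 1.26% of all genes. The 7 ES-cell markers with known reads per library summed to 80866 to 87236 in DMSO and 52239 to 60225 in ICRF-193. Of these, 4 were higher in A than in B and C in both groups, and 2 were lower. Trp53, the gene of p53, had a deposited log2 fold change of -0.08 (adjusted p = 0.996 by the authors' DESeq test).

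The promoters of Fas and Apaf1, the 2 genes that rose, and of Casp8, which did not pass the deposited test, are shown because they differ in base composition. RefSeq entries were matched for 7 of the 8 genes, all but Tnfrsf10b. The windows are the 250 bases before the annotated start, on GRCm38.p6, and are written in the direction of the gene: chr19:34290409-34290658 on the plus strand for Fas, chr10:91082744-91082993 on the minus strand for Apaf1 and chr1:58802252-58802501 on the plus strand for Casp8. Capitals mark a GC box (GGGCGG on either strand) or a CCAAT box (CCAAT on either strand).
Fas: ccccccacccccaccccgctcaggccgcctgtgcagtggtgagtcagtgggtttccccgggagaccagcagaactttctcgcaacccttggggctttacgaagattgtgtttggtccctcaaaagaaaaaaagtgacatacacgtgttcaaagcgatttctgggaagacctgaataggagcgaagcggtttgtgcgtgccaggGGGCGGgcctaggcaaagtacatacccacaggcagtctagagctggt
Apaf1: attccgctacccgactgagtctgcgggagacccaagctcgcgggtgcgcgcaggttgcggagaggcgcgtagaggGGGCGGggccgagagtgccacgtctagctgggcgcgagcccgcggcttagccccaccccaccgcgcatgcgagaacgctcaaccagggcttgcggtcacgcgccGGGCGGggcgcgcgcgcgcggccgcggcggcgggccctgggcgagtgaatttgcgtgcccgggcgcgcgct
Casp8: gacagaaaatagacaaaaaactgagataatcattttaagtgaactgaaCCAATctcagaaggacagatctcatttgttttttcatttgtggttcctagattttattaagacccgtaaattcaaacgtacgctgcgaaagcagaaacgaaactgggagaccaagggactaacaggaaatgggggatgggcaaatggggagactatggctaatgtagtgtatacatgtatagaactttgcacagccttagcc
The Apaf1 window was 75.6% G and C with 42 CpG dinucleotides, the Fas window 56.4% with 11 and the Casp8 window 39.6% with 5. The medians over 32851 promoters of this length were 52.4% and 6. The GC box occurred in Apaf1 (2 matches) and Fas (1), and the Casp8 window had no match. It also occurred in Casp9 (4 matches), Fadd (2), Casp6 (1) and Casp2 (1), against a share of 32.7% of all promoters. The CCAAT box was matched in Casp8 (1) and Casp2 (2), against 33.9% of all promoters. The palindrome CACGTG, not capitalised above, had 1 match, in Fas (6.02% of all promoters). TATAAA was matched in 0 of the 7 windows (12.4% of all promoters). The p53 half-site was likewise matched in 0 of the 7 (7.13% of all promoters), while 1 of the 2 Cdkn1a promoters held 2 matches. A match, or none, describes these letters only and says nothing of binding.

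Of the 8 genes, 2 rose and 0 fell in the authors' deposited table, taking an adjusted p under 0.05 as the threshold. Over the 18759 genes with reads, 5.97% rose and 1.26% fell. The genes that rose were Fas and Apaf1, 1 from the receptor route and 1 from the mitochondrial route. At an unadjusted p under 0.05 the authors' DESeq test had 4 of the 8 higher (11.5% of all genes) and 0 lower (5.38%), the added genes being Tnfrsf10b and Casp6. limma-voom on the recovered reads called the same 4 genes higher (9.85% of 14868 genes) and 0 lower (5.89%). The median deposited log2 fold change was 0.47 over the 8 genes and 0.01 over all genes with reads. All 3 ICRF-193 libraries lay above all 3 DMSO libraries for 4 of the 8 genes, against 18.8% of the genes tested, and below them for 2, Fadd and Casp9, against 18.7%.

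**Figure D1:**
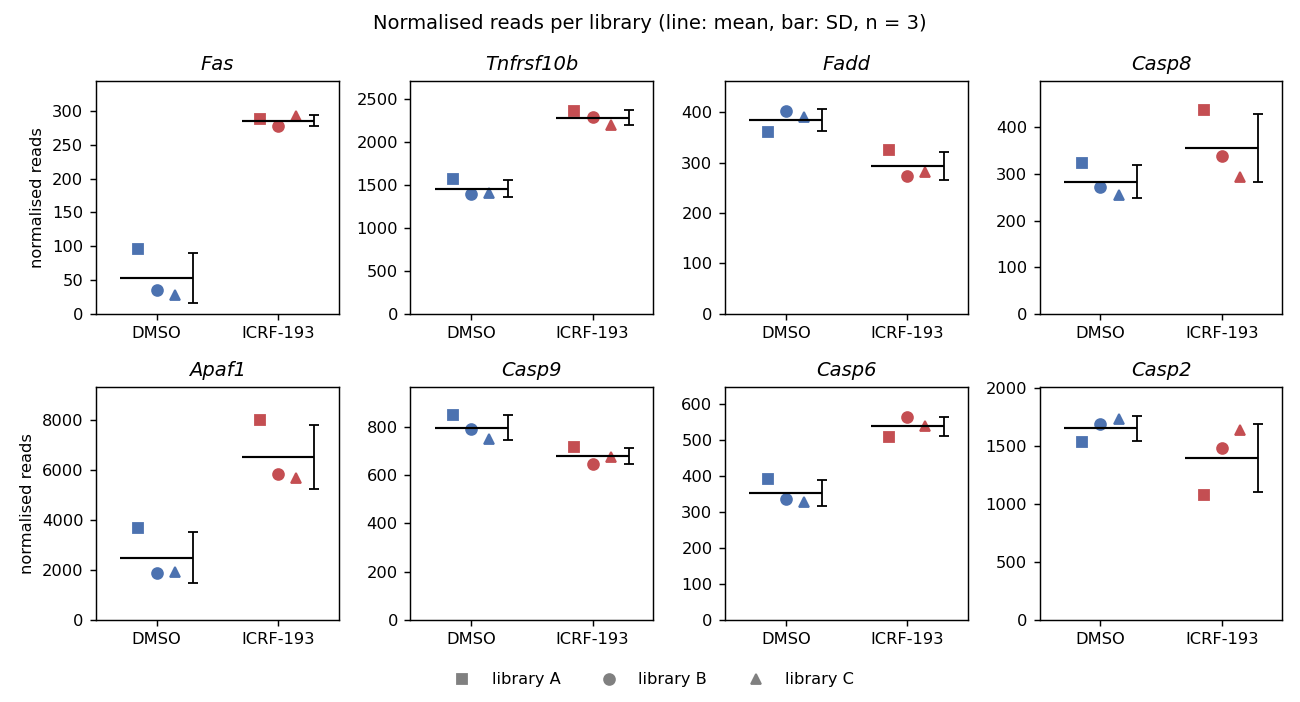
Normalised reads of the 8 genes in each library (vertical axis from 0, symbols for libraries A, B and C), with the mean as a line and the SD as a bar for DMSO (blue) and ICRF-193 (red), n = 3 libraries a group. The ICRF-193 libraries lie above all DMSO libraries for Fas, Tnfrsf10b, Apaf1 and Casp6, below them for Fadd and Casp9, and overlap them for Casp8 and Casp2.

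Fas, the receptor of Fas ligand, had the largest change of the 8. It was read at 95.5, 34.7 and 28.1 normalised reads in DMSO-A, DMSO-B and DMSO-C and at 288.1, 277.9 and 292.9 in the ICRF-193 libraries A, B and C. All treated libraries were close together and far above the controls, while DMSO-A was well above the other controls. The counts behind these values were 120, 35 and 26 reads in DMSO and 287, 268 and 261 in ICRF-193. The mean went from 52.8 ± 37.2 to 286 ± 7.67 (SD, n = 3), a fold change of 5.42 in the authors' deposited table (log2 2.44, adjusted p = 2.56e-12). limma-voom gave a log2 fold change of 2.59 ± 0.395 (SE, adjusted p = 0.00981). Without DMSO-B the limma-voom call was lost (adjusted p = 0.0591). Since these are bulk samples, a change in the number of cells that carry a transcript and a change in the amount per cell cannot be told apart.

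Fas is also abundant in lymphoid cells, and a list of 10 leukocyte markers summed to 2198 to 2389 normalised reads in DMSO and 4936 to 5444 in ICRF-193. Of its genes, 2 rose in the authors' deposited table, against 5.97% of all genes: Laptm5 and Cd68, both of lysosomes. Their group means went from 827 to 2856 and from 520 to 1313, so the rise of the sum was mostly theirs. Coro1a, also abundant, had 822 normalised reads in DMSO and 834 in ICRF-193, and Itgam 78.1 and 87.4. The pan-leukocyte marker Ptprc had 2.63 ± 1.48 normalised reads in DMSO and 12.3 ± 2.12 in ICRF-193 (SD, n = 3), and Lyz2 and Cd52 were under 10 in both groups. None of the 10 was at 0 in both groups. The part of such cells in the Fas values was not tested.

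Tnfrsf10b, the receptor of TRAIL, was higher in every treated library but did not pass the deposited test. Its levels were 1569, 1391 and 1407 normalised reads in the DMSO libraries A, B and C and 2366, 2291 and 2198 in those of ICRF-193. The groups were well apart, with library A the highest in each by a small margin. The mean of 1456 ± 98.4 became 2285 ± 83.9 (SD, n = 3), a fold change of 1.57 in the authors' deposited table (log2 0.65). The authors' DESeq test gave p = 0.00854 and adjusted p = 0.0938. limma-voom called the gene higher by 0.65 ± 0.0988 on the log2 scale (SE, adjusted p = 0.00978). This limma-voom call was lost without DMSO-B (adjusted p = 0.0625), without DMSO-C (0.0510) or without ICRF-193-B (0.0592). The smaller fold of this receptor thus came with a starting level far above that of Fas: per kilobase of exon, Tnfrsf10b had 267 ± 18.1 normalised reads in DMSO and Fas 25.6 ± 18.0.

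Downstream of the receptors, neither the adaptor nor the caspase passed the deposited test. Fadd, which binds the receptor through a death domain and caspase-8 through a death effector domain, had 361, 402 and 390.1 normalised reads in DMSO-A, B and C and 324, 274 and 282 in ICRF-193-A, B and C. Each treated library was below each control. The means were 384 ± 21.2 and 293 ± 27.2 (SD, n = 3), with a log2 fold change of -0.39 in the authors' deposited table (adjusted p = 0.534) and of -0.39 ± 0.131 by limma-voom (SE, adjusted p = 0.0949). Fadd shares 239 bases (6.12%) of its exons with the antisense transcript Faddos in GENCODE M21, and since the labels do not say whether the kit marks strand, reads of the 2 cannot be told apart there.

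Casp8, the protease that FADD activates, was read at 324, 272 and 255 normalised reads in the DMSO libraries A, B and C. The ICRF-193 libraries had 437, 339 and 293, so that ICRF-193-C lay below DMSO-A. In each group library A was the highest. The log2 fold change was 0.33 in the authors' deposited table (means 284 ± 35.9 and 356 ± 73.4, SD, n = 3, adjusted p = 0.645), and limma-voom gave 0.31 ± 0.192 (SE, adjusted p = 0.312).

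Apaf1, the scaffold of the apoptosome, had the second change that passed. It was read at 3658, 1882 and 1922 normalised reads in DMSO-A, DMSO-B and DMSO-C, and at 7972, 5836 and 5673 in the ICRF-193 libraries in the same order. Library A was the highest in both groups, yet the lowest treated library was above the highest control. The mean rose from 2488 ± 1014 to 6494 ± 1283 (SD, n = 3), a fold change of 2.61 in the authors' deposited table (log2 1.38, adjusted p = 0.000688). limma-voom gave 1.43 ± 0.281 (SE, adjusted p = 0.0210). That call was lost without DMSO-B (adjusted p = 0.0908), without DMSO-C (0.0779), without ICRF-193-B (0.0758) or without ICRF-193-C (0.0638).

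Casp9, the caspase that the apoptosome activates, was not higher with its scaffold. Its normalised reads were 850.1, 792 and 748 in the DMSO libraries A, B and C and 715, 646 and 676 in those of ICRF-193. All treated libraries were below all controls by a small margin. The log2 fold change of -0.23 in the authors' deposited table (means 797 ± 51.3 and 679 ± 34.5, SD, n = 3) had an adjusted p of 0.763, and limma-voom gave -0.23 ± 0.111 (SE, adjusted p = 0.202). Casp9 overlaps Cela2a and Ctrc by 94 bases each (1.81% of its exons).

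Casp6, an executioner that cuts nuclear lamins, was higher in all treated libraries. The DMSO libraries A, B and C had 392, 334 and 329 normalised reads and the ICRF-193 libraries 509, 564 and 538. The groups were apart, and library A was the highest control but the lowest treated sample. The fold change was 1.53 in the authors' deposited table (means 352 ± 35.3 and 537 ± 27.6, SD, log2 0.61), with p = 0.0213 and adjusted p = 0.174 by the authors' DESeq test. limma-voom called it, at 0.61 ± 0.128 on the log2 scale (SE, adjusted p = 0.0255). This limma-voom call was lost without DMSO-B (adjusted p = 0.117), without DMSO-C (0.0983), without ICRF-193-B (0.114) or without ICRF-193-C (0.101).

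Casp2, the caspase of the PIDD1 platform, overlapped between groups. It had 1532, 1692 and 1735 normalised reads in DMSO-A, B and C and 1075, 1485 and 1638 in ICRF-193-A, B and C. Library A was the lowest in both groups and the pair A differed most. The log2 fold change was -0.24 in the authors' deposited table (means 1653 ± 107 and 1399 ± 291, SD, n = 3, adjusted p = 0.752) and -0.26 ± 0.172 by limma-voom (SE, adjusted p = 0.345).

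Set against exonic length, the order of the 8 genes by group mean was the same for the first 3 in both groups and changed below them. In DMSO, Apaf1 was highest with 276 ± 112 normalised reads per kilobase (SD, n = 3), followed by Tnfrsf10b (267 ± 18.1) and Casp2 (234 ± 15.2). The libraries of Apaf1 overlapped those of both. In DMSO-B and DMSO-C Apaf1 was the lowest of these 3, so its first place rests on DMSO-A. Casp9 (153 ± 9.87) came next, then Fadd (98.4 ± 5.44) and Casp8 (98.0 ± 12.4), whose libraries overlapped. Casp6 (63.0 ± 6.33) and Fas (25.6 ± 18.0) were lowest. In ICRF-193, Apaf1 (719 ± 142) and Tnfrsf10b (419 ± 15.4) led, and Casp2 had 198 ± 41.3. Fas came next at 139 ± 3.72, and its libraries overlapped those of Casp9 (131 ± 6.63) and Casp8 (123 ± 25.4). Casp6 (96.1 ± 4.94) and Fadd (75.1 ± 6.96) were then the lowest. Lengths are the union of GENCODE M21 exons, from 2062 bases for Fas to 9028 for Apaf1.

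The 2 genes that rose were also those in which DMSO-A stood highest above the other controls. Fas was 3.04 times as high in DMSO-A as in the mean of DMSO-B and DMSO-C, a ratio that 2.58% of the genes tested reached, and Apaf1 was 1.92 times as high (8.05% of genes). In ICRF-193 the same ratio was 1.01 for Fas and 1.39 for Apaf1. Over all genes its median was 0.997 in DMSO and 0.965 in ICRF-193. Cdkn1a, the p53 target that encodes the cell-cycle inhibitor p21, had a like order, with 3285 normalised reads in DMSO-A against 1677 and 1776, and 7371 in ICRF-193-A against 6281 and 6391. The summed fibroblast list was high in both libraries A, mostly through collagen genes. Fas was above B and C in DMSO-A and level with them in ICRF-193-A. The ratios of Fas stand on unlike levels, with a mean of B and C of 31.4 normalised reads in DMSO and 285 in ICRF-193. The part of fibroblasts or feeder cells in these ratios was not tested.

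**Figure D2:**
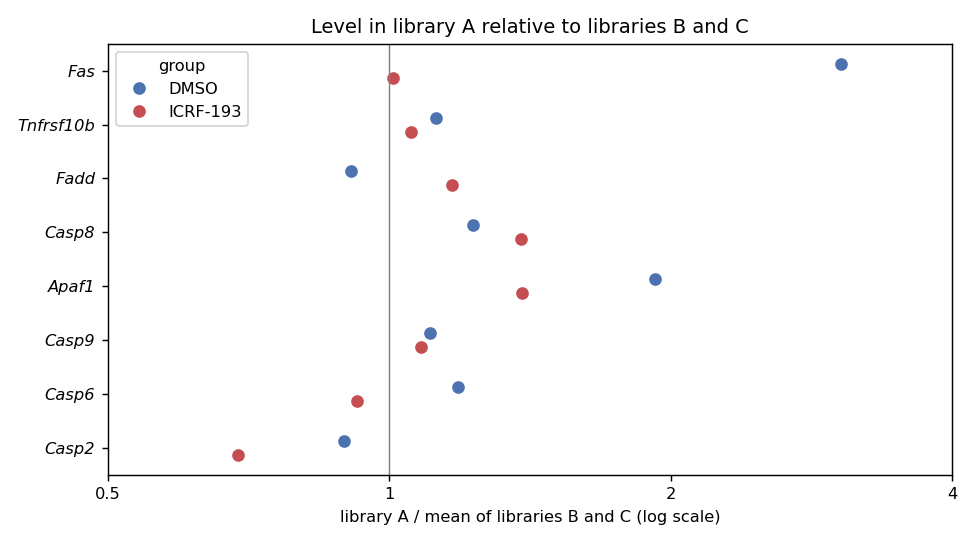
Ratio of library A to the mean of libraries B and C for the 8 genes (horizontal axis, log scale), in DMSO (blue) and ICRF-193 (red). Fas lies at 3.04 in DMSO and 1.01 in ICRF-193, while the other genes lie between 0.688 and 1.92.

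The fold change was therefore also taken within libraries A and within B and C. For Fas it was 3.02 between the libraries A and 9.09 between the means of B and C, and the deposited fold of 5.42 lies between them. For Apaf1 it was 2.18 and 3.03, for Tnfrsf10b 1.51 and 1.60, and for Casp6 1.3 and 1.66. Casp2 had 0.702 between the libraries A and 0.911 in B and C, and Fadd 0.899 and 0.701. None of the 8 genes changed direction between the pair A and the libraries B and C. A limma-voom term for the interaction of treatment with this split had an unadjusted p of 0.000361 for Fas, 0.00084 for Apaf1 and 0.0190 for Casp2, 3 of the 8 genes against 7.82% of all genes. After adjustment over all genes these were 0.156, 0.190 and 0.515, and 0 of the 8 were called (0.0202% of all genes).

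With the split as a term, limma-voom called 5 of the 8 genes higher (27.2% of all genes) and 3 lower (32.4%). The log2 fold changes were 2.40 ± 0.284 for Fas (SE, adjusted p = 4.11e-05), 1.42 ± 0.0851 for Apaf1 (adjusted p = 5.01e-07) and 0.65 ± 0.0566 for Tnfrsf10b (adjusted p = 5.1e-06). Casp6 (0.60 ± 0.0976, adjusted p = 0.000367) and Casp8 (0.33 ± 0.102, adjusted p = 0.0164) were the other genes higher. The genes lower in this limma-voom fit were Fadd (-0.38 ± 0.104, adjusted p = 0.00870), Casp9 (-0.23 ± 0.0707, adjusted p = 0.0154) and Casp2 (-0.26 ± 0.0815, adjusted p = 0.0183). Without both libraries A it called Fas, Apaf1, Tnfrsf10b and Casp6 higher (25.2% of all genes) and Fadd lower (28.6%). The pairing of the A libraries in this term was chosen after the values were seen and comes from the data, not from the labels.

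**Figure D3:**
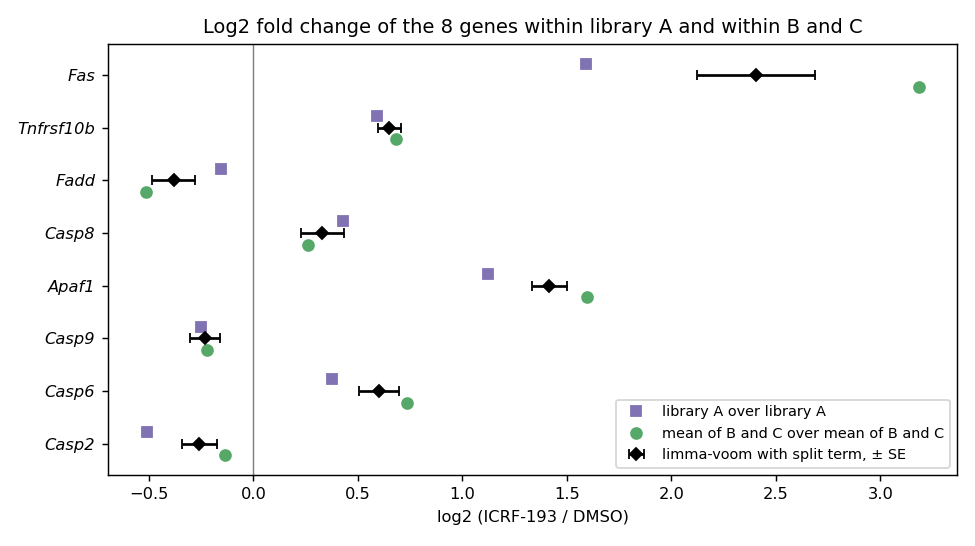
Log2 of ICRF-193 over DMSO for the 8 genes (horizontal axis), between the libraries A (squares), between the means of B and C (circles) and in the limma-voom fit with a term for the split (diamonds, bars ± SE). All 3 values of each gene share a sign, and Fas shows the widest gap, from a fold of 3.02 to 9.09.

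Genes whose levels moved most like those of the 2 genes that rose were found by the Euclidean distance of centred log2 values (normalised reads plus a pseudocount of 1) over the 6 libraries. For Fas the nearest were Ltbp2 (distance 0.436), Mdga1 (0.514) and Ano3 (0.562), with deposited fold changes of 5.12, 5.04 and 6.26 in the authors' deposited table. Nearest to Apaf1 were Vcan (0.112), Itpkb (0.188) and Ablim1 (0.206), with folds of 2.50, 2.36 and 2.35. Vcan, a matrix proteoglycan, had 3321, 1640 and 1727 normalised reads in the DMSO libraries A, B and C, and 6715, 5254 and 4760 in those of ICRF-193, and so shared the high library A with Apaf1.

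Of 58 other genes of these pathways in the table, 8 rose and 0 fell in the authors' deposited table (5.97% and 1.26% of all genes). Their median log2 fold change was 0.10. At an unadjusted p under 0.05, 11 were higher and 3 lower by the authors' DESeq test (11.5% and 5.38% of all genes). limma-voom, which could be fitted for 49 of the 58, called 8 higher and 3 lower (9.85% and 5.89% of all genes). Of 6 ligands 0 passed the authors' DESeq test, with 1 at an unadjusted p under 0.05. Of the 3 ligands with enough reads for limma-voom 0 were called, and Fasl and Tnfsf10 were not among those 3. Fasl had 0.796 normalised reads in DMSO and 3.15 in ICRF-193 (adjusted p = 0.762 by DESeq), and Tnfsf10, which encodes TRAIL, had 0, 6.94 and 3.24 in the DMSO libraries A, B and C and 7.03, 15.6 and 13.5 in those of ICRF-193 (adjusted p = 0.175 by DESeq). Tnfsf12 was the ligand with the highest level, at 149 and 127 normalised reads. It shares 731 bases (48.25%) of its exons with Tnfsfm13 on the same strand in GENCODE M21. How the counting treated reads there was not tested, so this level is uncertain. Fasl and Tnfsf10, the ligands of the described receptors, rested on few reads.

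Among 11 other death and decoy receptors, 2 rose, against 5.97% of all genes. Eda2r, a receptor for the A2 form of ectodysplasin, had 3048, 2208 and 2455 normalised reads in DMSO-A, B and C and 5326, 5159 and 5166 in ICRF-193-A, B and C. As for Fas, DMSO-A was the highest control and the treated libraries lay close together. Its fold was 2.03 in the authors' deposited table (adjusted p = 0.00136). Ngfr, the low-affinity neurotrophin receptor, had a fold of 1.93 (adjusted p = 0.0047 by DESeq).

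Of 10 other adaptors and kinases 3 rose, against 5.97% of all genes. Ripk3 and Mlkl, the kinase and the membrane-breaking effector of necroptosis, had folds of 2.16 (adjusted p = 0.000312) and 2.54 (adjusted p = 0.0207) in the authors' deposited table. For Mlkl, limma-voom did not make the call (adjusted p = 0.0612). Lrdd, the older symbol of Pidd1, had 1649, 1869 and 2300 normalised reads in the DMSO libraries A, B and C and 3239, 4817 and 4931 in those of ICRF-193. The groups were apart, with library A the lowest in each. Its fold was 2.23 in the authors' deposited table (adjusted p = 0.000648), beside 0.846 for Casp2 and 0.687 for Cradd, the adaptor that joins the 2 proteins (adjusted p = 0.250 by DESeq, 0.0369 by limma-voom). The member of this list with the highest level, Faf1, had a log2 fold change of -0.32 (adjusted p = 0.570 by DESeq).

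Among 12 brakes, 1 rose, against 5.97% of all genes. This was Faim2, an inhibitor of Fas signalling, with a fold of 3.02 in the authors' deposited table (adjusted p = 5.76e-06). It had 57.3, 91.3 and 68.1 normalised reads in the DMSO libraries A, B and C and 179, 228 and 248 in those of ICRF-193, with no overlap. Cflar, the decoy of caspase-8, had a log2 fold change of 0.05 and Xiap, which blocks caspases directly, one of 0.04 (both adjusted p = 1 by DESeq). Birc6 had the highest level of the list and a log2 fold change of -0.18. Of 6 genes on the list of mitochondrial factors 0 rose in the deposited DESeq test, against 5.97% of all genes. In that test 0 had an unadjusted p under 0.05 (11.5% of all genes higher, 5.38% lower). On all 6 libraries without the split term, limma-voom called 0 of them. It called 4 lower with the split term (32.4% of all genes) and 4 lower without the libraries A (28.6%). Bid, which caspase-8 cuts to link the 2 routes, had a log2 fold change of -0.01 and Aifm1, highest of the list, one of -0.21. Cycs, the cytochrome c that binds APAF1, had 68.4 and 73.2 normalised reads. The gene has pseudogene copies, and how the counting treated reads shared with them was not tested, so this level is uncertain.

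Of 6 other caspases 1 rose, against 5.97% of all genes. Casp14, a caspase of the epidermis, had 7.16, 3.97 and 4.32 normalised reads in the DMSO libraries A, B and C and 75.3, 60.1 and 58.4 in those of ICRF-193. It was low in every control, and its fold was 12.5 in the authors' deposited table (adjusted p = 6.38e-11). The controls rested on 9, 4 and 4 reads, and with a pseudocount of 10 the log2 fold change went from 3.65 to 2.3. Among 7 substrates and nucleases 1 rose, against 5.97% of all genes. This was Dffb, the nuclease that cuts DNA between nucleosomes, with a fold of 2.61 in the authors' deposited table (adjusted p = 0.000187). Lmna, a lamin that caspase-6 cuts, had a log2 fold change of 0.57 (adjusted p = 0.170 by DESeq, 0.0195 by limma-voom). Parp1, highest of its list, had one of -0.51 (adjusted p = 0.218 by DESeq, 0.0279 by limma-voom).

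**Figure D4:**
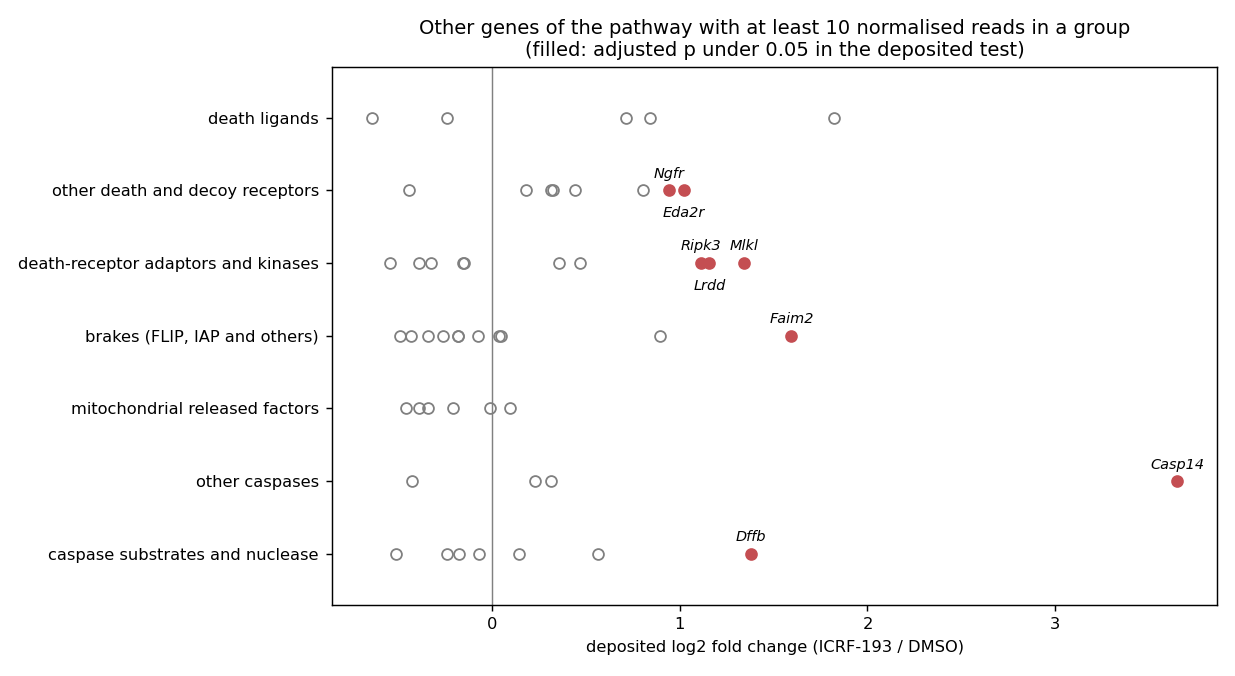
Deposited log2 fold change (horizontal axis) of the 51 of 58 other pathway genes with at least 10 normalised reads in a group, by list (rows), filled and named where the adjusted p of the deposited test was under 0.05. The 8 named genes lie to the right of 0, with Casp14 farthest at a 12.5-fold change.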

How the data were processed

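Messenger RNA of 2 groups (DMSO, ICRF-193), each labelled as 3 replicates, was compared. Per the submitters' processing notes TopHat, HTSeq and DESeq were used with mm9; versions, annotation and settings are not given in the sources used here. The deposited group columns hold a signal, normalised reads per gene averaged over a group by the authors. The deposited fold change is a ratio of these means and the deposited log2 value its logarithm. The deposited p-values, raw and adjusted, are those of the authors' test, taken here as the main result.

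The means are printed to 15 significant digits. Each adds up whole numbers of reads, every library having a step of its own, so the reads per library were worked back by a lattice search. Of 18759 genes with reads, 18173 had a single solution (96.9%), 427 were taken at a posterior of at least 0.99 and 159 stayed unresolved. Library totals include the expected reads of unresolved genes. limma-voom (limma 3.58.1, R 4.3.3) was fitted to genes that reached 10 reads in 3 or more libraries, with Benjamini-Hochberg adjustment over 14868 genes. Recovery and fits were tested on simulated data, and the outcome is not given here. The simulated libraries A differed from B and C alike in both groups, which was not so for Fas. Counting error is part of the spread between libraries. Exonic lengths and overlaps come from GENCODE M21 and promoters from RefSeq, since no annotation of mm9 was used.

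The genes and lists were chosen with earlier results of these data known. Named are the 8 genes; from 7 pathway lists each gene with an adjusted p under 0.05, the gene of highest level and a set of central genes; the 3 nearest genes of each of the 8 that passed; and Trp53 and Cdkn1a. Cradd, Lmna, Laptm5, Cd68 and the other markers named were added after their values were seen. Some named results are not reported here. The list of other caspases held 7 symbols, of which 6 were in the table. Alternatives were other scalings, filters and pseudocounts, a term for the libraries A, and each library left out.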

Additional observations from a re-analysis of the deposited data

How the results depend on the processing

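In the 24 alternatives tried for each of the 8 genes, no log2 fold change turned its direction. Some of them cannot turn it: the pseudocounts and a new adjustment of the deposited p over genes with a mean of at least 10. Fas ranged from 2.17 to 3.17 and Apaf1 from 1.26 to 1.76. Scaling by total reads moved the median log2 fold change of all genes from -0.04 to 0.09. The deposited test had 2 of the 8 genes higher and 0 lower. limma-voom had 4 higher under its own, total, TMM and upper-quartile scaling, with no filter, with at least 50 reads and without the libraries A, and 5 with the split term under each scaling. It had 0 lower without the split term, 3 with it or with TMM added, 1 with the upper quartile added, 0 with total scaling added and 1 without the libraries A. Leaving out 1 library, limma-voom had 0 to 4 higher, lowest without DMSO-B (0), DMSO-C or ICRF-193-B (1 each, Fas) and ICRF-193-C (2, Fas and Tnfrsf10b), and 0 lower. With the split term added as well, leaving out 1 of the libraries B and C gave 5 higher and 2 to 3 lower.

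Of the 58 other pathway genes 8 were higher and 0 lower in the deposited test. The higher count was 17 with the split term (18 with total scaling, 17 with TMM, 17 with the upper quartile) and 15 without the libraries A. The lower count was 3 by limma-voom (1 with total scaling, 4 with TMM, 2 with the upper quartile, 3 with no filter, 3 with at least 50 reads), 19 with the split term (12, 20 and 14 with those scalings) and 15 without the libraries A. Leaving out 1 library, limma-voom had 4 to 9 higher and 0 to 5 lower, and with the split term added as well 16 to 17 higher and 15 to 19 lower. Dffb and Lrdd lost the limma-voom call without DMSO-B, ICRF-193-B or ICRF-193-C, and Ripk3 without ICRF-193-B. The cause was not tested. Fasl and Tnfsf10 had too few reads for limma-voom.

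No paired analysis was possible because the recovered libraries carry no replicate numbers. The pairing of the libraries A, and with it the split term, was read from the data.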

Other observations

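The 2 leukocyte-list genes that rose, both of lysosomes, are given here by library. Laptm5 had 1124, 642 and 714 normalised reads in the DMSO libraries A, B and C and 3481, 2373 and 2714 in those of ICRF-193 (3.45-fold in the authors' deposited table, adjusted p = 2.58e-07). Cd68 had 473, 532 and 554 and then 1022, 1433 and 1484 (2.53-fold in the authors' deposited table, adjusted p = 8.01e-06). The T-cell gene Cd3e had 33.6 ± 10.9 and 51.3 ± 11.5 normalised reads (SD, n = 3).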
